A study of Flaveria robusta and Flaveria sonorensis and Flaveria ramosissima with 24 samples.

Results

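The genes described here are those whose leaf transcript abundance moved with CO2 in Flaveria sonorensis while it stayed nearly level in the 3 other species measured. Of 29562 genes, 138 were chosen, and 28 of them were higher and 110 lower at low CO2 in F. sonorensis. The measure was TPM, a transcript abundance corrected for gene length and set relative to the whole library. A change is the mean log2(TPM + 1) of the low CO2 libraries minus that of the controls of the same species, so a change of 1 is about a doubling of abundant transcripts. A gene was chosen when it averaged 1 TPM or more in every species, its change in F. sonorensis was at least 1 in size with no overlap between low CO2 and control libraries, and its change was below 0.5 in size in F. robusta, F. ramosissima and F. trinervia. The 28 are called rising members and the 110 falling members. All 4 low-against-control contrasts thus entered the choice, and the values of these contrasts are given as a description.

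The plants were F. sonorensis at low CO2 for 2 weeks and F. sonorensis in control air, and in the same way F. robusta, F. ramosissima and F. trinervia, with 3 libraries in each of the 8 groups. Newly expanded mature leaves were taken from plants that shared a chamber setting of 200 µmol m-2 s-1 light, 22 °C, 16 h light and 8 h dark, and 70% humidity. The labels give CO2 settings of 100 for low CO2 and 380 for control air in µmol m-2 s-1, which measures light flux, and the sources used here do not say how this unit applies to CO2. Whether replicate libraries came from separate plants is not stated, so the spread between them may be technical. Accession, plant age and pooling of leaves are also not stated.

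Flaveria is a genus of the daisy family in which the step between C3 and C4 photosynthesis can be followed in living species. C3 plants such as F. robusta fix CO2 with Rubisco directly and lose part of the carbon to photorespiration, which becomes heavier when CO2 is scarce. C4 plants such as F. trinervia first fix carbon in mesophyll cells and release it around Rubisco in the bundle sheath. The C3-C4 intermediates, here F. sonorensis and F. ramosissima, move photorespiratory glycine to the bundle sheath and recapture its CO2 there. The genes carry row identifiers without names in the data used here, so neither their functions nor the leaf label could be checked against known genes. Only 4 identifiers are printed, the member with the largest change and the most abundant member in each direction, and the other members are given by counts and ranges.

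As background to the small limits of the choice, the median change over all genes tested in a species was -0.17 in F. sonorensis (14436 genes), -0.36 in F. robusta (14194), 0.00 in F. ramosissima (15899) and -0.12 in F. trinervia (13873). An unchanged TPM in F. robusta therefore lay above most genes of that species, and an equal TPM limit was not an equal distance from the bulk of the genes. The deposited TPM of a library summed to between 857693 and 930239. The number of reads behind a library is unknown, so the errors given come from the spread between libraries. In F. trinervia, low CO2 replicate 2 stood apart, with a score of -12.4 on the first principal component against 55.7 and 59.0 for the 2 other low CO2 libraries and -42.7 to -29.0 for the controls. Without that library, the same rule chose 26 rising genes, of which 24 were among the 28, and 83 falling genes, of which 76 were among the 110.

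Members were few among the genes that responded in F. sonorensis. Of the 8863 genes that reached an average of 1 TPM in every species, 147 had a change of 1 or more with no overlap (1.66%), and 28 of these were below 0.5 in all 3 other species. In the other direction 766 genes had a change of -1 or less (8.64%), and 110 of these were members. F. robusta removed the most genes at the 0.5 limit: it left 56 of the 147 and 215 of the 766, whereas F. ramosissima left 95 and 519 and F. trinervia 90 and 349. Among the 147, 97 had a change of 0.5 or more in the same direction in at least one other species and 49 had one in the opposite direction. Among the 766, these numbers were 612 and 101. Over all 8863 genes, 3368 were below 0.5 in size in all 3 other species. The median change over the 8863 genes was -0.39 in F. robusta. The counts by single species and by direction were not made over all genes, so nothing is read from them about a shared response.

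Many members lay close to the limits. The smallest change among the rising members was 1.01, and the nearest gene outside had 0.98. Among the falling members the genes on either side of the limit had -1.0016 and -0.9993. The largest change in another species was 0.484 for a rising member and 0.499 for a falling one, and the nearest genes outside had 0.5002 and 0.5015. In F. sonorensis, 7 of the 28 rising and 32 of the 110 falling members were within 0.1 of the limit. A change above 0.4 in size in some other species was seen for 5 rising and 43 falling members, whereas 6 rising and 13 falling members were below 0.25 in all 3 others. A further 3 rising and 4 falling genes met the size limits but had overlapping libraries.

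The largest change of any member was that of Gene07946. It had 53.56, 9.58 and 71.65 TPM in the low CO2 libraries of F. sonorensis, against 1.55, 0.73 and 1.04 TPM in its controls. All 3 low CO2 libraries were above the highest control, though replicate 2 was well below replicates 1 and 3. The means were 44.9 ± 31.9 TPM at low CO2 and 1.11 ± 0.414 TPM in control air (SD, n = 3 each), a ratio of 40.6, and the change was 4.06 (SE 0.636). Leaving out one F. sonorensis library at a time gave changes between 3.53 and 4.92. In bulk leaf tissue, a change in the share of the cells that make a transcript and a change in transcript per cell cannot be told apart, and this holds for every member.

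In the 3 other species Gene07946 stayed at the level of the F. sonorensis controls or somewhat above. F. robusta had 1.7, 1.36 and 2.43 TPM at low CO2 and 2.26, 2.51 and 1.9 TPM in control air. F. ramosissima had 1.53, 2.14 and 1.89 TPM at low CO2 and 1.8, 1.93 and 1.4 TPM in control air. F. trinervia had 3.93, 2.28 and 2.03 TPM at low CO2 and 3.43, 2.99 and 3.23 TPM in control air. The groups overlapped in each of these species, with changes of -0.20 (SE 0.181) in F. robusta, 0.07 (SE 0.189) in F. ramosissima and -0.20 (SE 0.233) in F. trinervia. The level of the gene, averaged over both CO2 settings, was not called different between any pair of these 3 species (limma adjusted p between 0.129 and 0.735), with differences of 0.39 for F. trinervia minus F. robusta, -0.11 for F. ramosissima minus F. robusta and 0.50 for F. trinervia minus F. ramosissima.

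Gene31727 was the most abundant rising member in F. sonorensis and, unlike Gene07946, lay just inside the limit. It had 490.31, 453.2 and 495.86 TPM at low CO2, against 264.22, 216.68 and 231.28 TPM in control air. The replicates were tight and the groups far from overlapping, with means of 480 ± 23.2 and 237 ± 24.4 TPM (SD, n = 3 each), a ratio of 2.02 and a change of 1.02 (SE 0.138). The changes without one F. sonorensis library ran between 0.95 and 1.10, so the limit of 1 was not met in each case.

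In the other species Gene31727 was also abundant and varied more between replicates. F. robusta had 342.15, 143.56 and 207.58 TPM at low CO2 and 306.59, 293.55 and 150.75 TPM in control air, a change of -0.14 (SE 0.386). F. ramosissima had 218.33, 275.18 and 230.18 TPM at low CO2 and 260.88, 235.44 and 126.13 TPM in control air, a change of 0.28 (SE 0.278). F. trinervia had 188.72, 266.05 and 193.71 TPM at low CO2 and 191.27, 251.92 and 144.17 TPM in control air, a change of 0.16 (SE 0.256). The difference between the change in F. sonorensis and that in F. robusta was 1.15, in F. ramosissima 0.74 and in F. trinervia 0.85 (SE 0.437 each). None of these 3 differences was called by limma, and the control libraries of the 4 species overlapped in level.

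**Figure D1:**
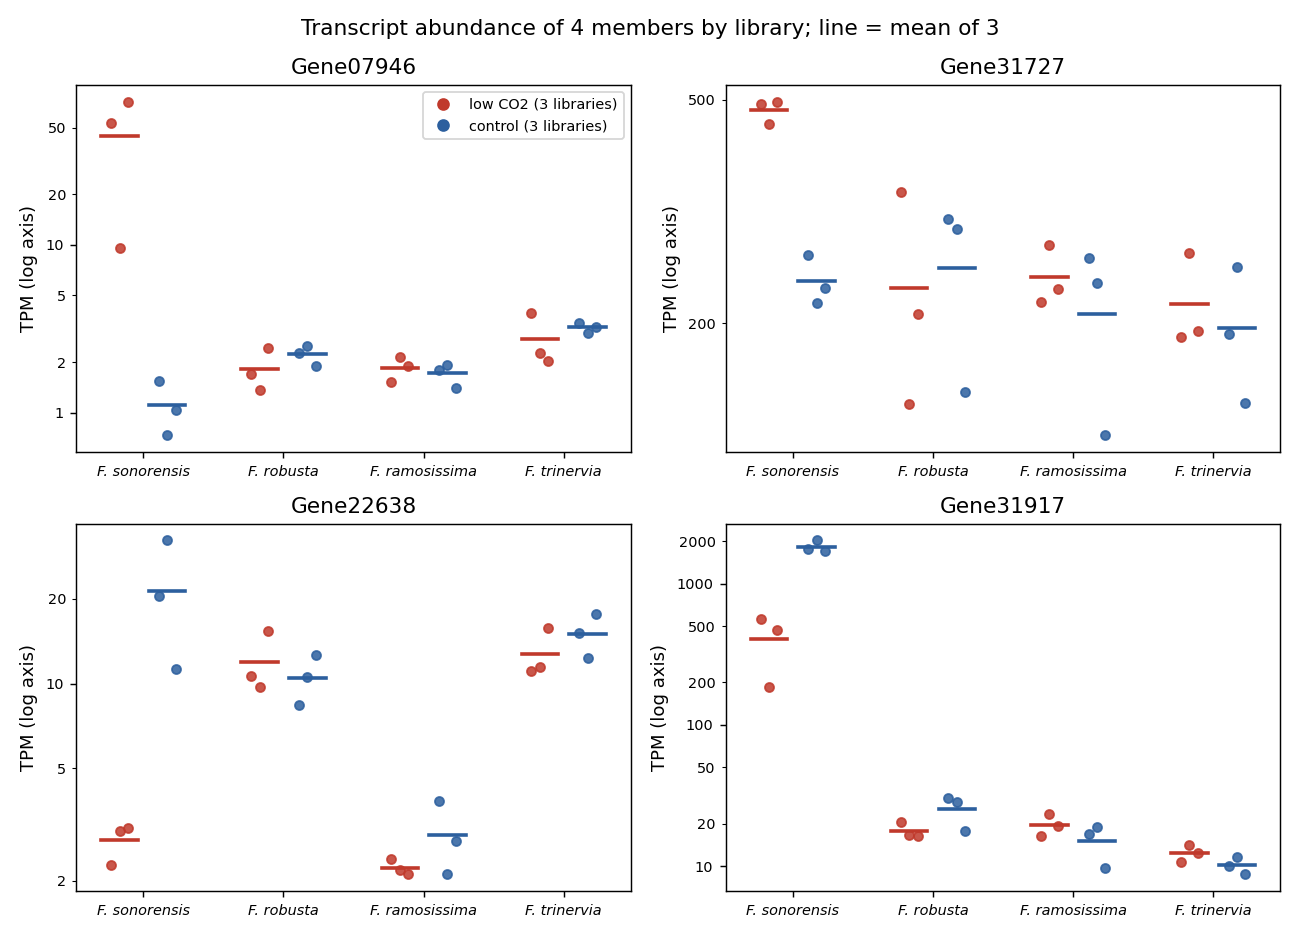
TPM (log axis) of the 4 printed members in each of 24 libraries, low CO2 left of control within a species, with a line at the mean of 3 libraries. Gene07946 is below 4 TPM in all groups other than F. sonorensis at low CO2, and Gene31917 is at least 186.36 TPM in every F. sonorensis library and at most 30.18 TPM in the other species.

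The falling member with the largest change was Gene22638. It had 2.28, 3.01 and 3.07 TPM in the low CO2 libraries of F. sonorensis, against 20.44, 32.17 and 11.28 TPM in the controls. The low CO2 libraries were close together, while the controls were more widely spread. The means were 2.79 ± 0.440 TPM at low CO2 and 21.3 ± 10.5 TPM in control air (SD, n = 3 each), and the change was -2.45 (SE 0.332).

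The level of Gene22638 differed among the other species even though their changes were small. F. robusta had 10.6, 9.7 and 15.34 TPM at low CO2 and 8.38, 10.51 and 12.58 TPM in control air, a change of 0.16 (SE 0.212). F. ramosissima had 2.39, 2.18 and 2.11 TPM at low CO2 and 3.83, 2.11 and 2.77 TPM in control air, a change of -0.25 (SE 0.216). F. trinervia had 11.04, 11.42 and 15.72 TPM at low CO2 and 15.06, 12.3 and 17.7 TPM in control air, a change of -0.23 (SE 0.223). Averaged over both settings, F. ramosissima was below F. robusta by a log2 difference of -1.77 (SE 0.190, limma adjusted p = 3.41e-08) and F. trinervia was above F. ramosissima by 2.06 (adjusted p = 3.18e-09), while F. trinervia minus F. robusta was 0.29 (adjusted p = 0.181). In F. sonorensis the control libraries were thus near F. robusta and F. trinervia or above them, and the low CO2 libraries were near F. ramosissima. With other scalings of the libraries the change of Gene22638 in F. robusta became 0.57 (median of ratios) or 0.65 (quantile), and the gene was then outside the 0.5 limit, with a change of -2.08 in F. sonorensis under both.

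Gene31917 was the most abundant falling member, and its level in F. sonorensis was far above that in the other species. It had 556.79, 186.36 and 469.5 TPM in F. sonorensis at low CO2, against 1745.69, 2022.57 and 1688 TPM in control air. The means were 404 ± 194 TPM and 1819 ± 179 TPM (SD, n = 3 each), 4.50 times more in control air, with a change of -2.31 (SE 0.370). In F. robusta it had 20.39, 16.51 and 16.29 TPM at low CO2 and 30.18, 28.26 and 17.75 TPM in control air, a change of -0.47 (SE 0.220) that was just below the limit and in the direction of F. sonorensis.

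The 2 remaining species also had low levels of Gene31917, with small changes in the other direction. F. ramosissima had 16.25, 23.53 and 19.28 TPM at low CO2 and 16.76, 18.89 and 9.61 TPM in control air, a change of 0.40 (SE 0.280). F. trinervia had 10.72, 14.19 and 12.35 TPM at low CO2 and 9.97, 11.56 and 8.76 TPM in control air, a change of 0.27 (SE 0.198). Even the lowest F. sonorensis library, at 186.36 TPM, was above the highest library of the other species. Whether this row stands for the same gene copy in all 4 species is not stated, and levels compared between species include whatever differs between their references. Among the 3 others, the level was lower in F. trinervia than in F. robusta (log2 difference -0.85, SE 0.216, limma adjusted p = 0.00160) and than in F. ramosissima (-0.56, adjusted p = 0.0243), and F. ramosissima minus F. robusta was -0.30 (adjusted p = 0.215).

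Across the members, most changes in F. sonorensis were moderate. The rising members had a median change of 1.24 (middle 50% of members between 1.10 and 1.55), and after the 4.06 of Gene07946 the largest were 2.19, 2.01, 1.95 and 1.91. The falling members had a median of -1.19 (middle 50% between -1.39 and -1.09), and the largest after the -2.45 of Gene22638 and the -2.31 of Gene31917 were -2.28, -2.11, -2.09 and -2.06. Only 3 rising and 6 falling members reached a size of 2. One falling member was at 0 in low CO2 replicate 2 of F. sonorensis, and no rising member was at 0 in any of the 24 libraries.

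The rising members took 0.397, 0.430 and 0.388% of the summed TPM in the low CO2 libraries of F. sonorensis, against 0.185, 0.156 and 0.193% in its controls. The falling members took 0.443, 0.380 and 0.424% at low CO2, against 1.45, 1.08 and 0.887% in control air. The control libraries differed more among themselves in the falling members than the low CO2 libraries did, and control replicate 1 had the highest share. A falling member picked after its values were seen had 269.98, 106.33 and 100 TPM in the controls, against 64.99, 54.54 and 57.44 TPM at low CO2. The size of such a change depends in part on control replicate 1. In other falling members, such as Gene22638, control replicate 2 was the highest instead. The median member was more abundant than the median gene. The median over rising members of the mean TPM in F. sonorensis was 50.2 (2.46 to 359 over members) and over falling members 23.4 (3.39 to 1111), beside 18.2 for all 8863 genes. The rising members had medians of 30.6 in F. robusta, 32.0 in F. ramosissima and 34.3 in F. trinervia, and the falling members 18.7, 12.2 and 21.3 in these species, beside 11.9, 7.40 and 12.7 for all 8863 genes.

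**Figure D2:**
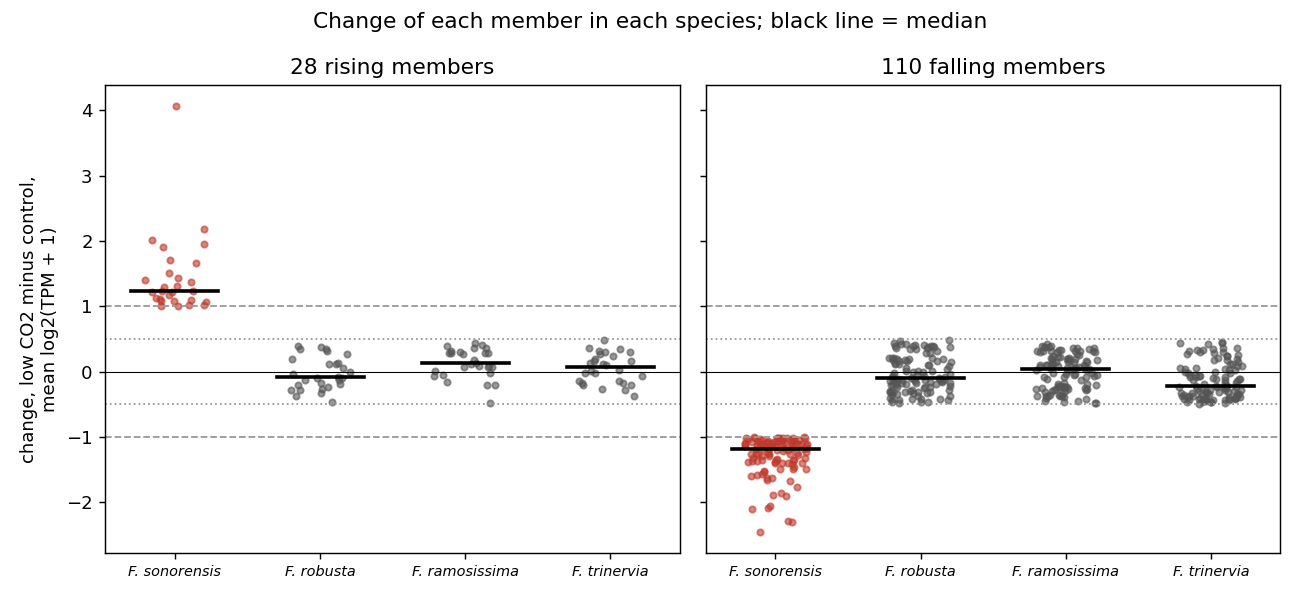
Change (low CO2 minus control, mean log2(TPM + 1)) of each member in each species, with the 28 rising members on the left, the 110 falling ones on the right, a black line at the median, dashed lines at 1 and -1 and dotted lines at 0.5 and -0.5. The changes in F. sonorensis gather near the limit, with medians of 1.24 and -1.19, and those in the other species fill the band allowed by the choice.

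The changes in the 3 other species were limited to below 0.5 by the choice, and within that band they were spread widely. Rising members had a median change of -0.09 in F. robusta (-0.46 to 0.40), 0.12 in F. ramosissima (-0.48 to 0.43) and 0.06 in F. trinervia (-0.37 to 0.48). Falling members had medians of -0.10 (-0.48 to 0.49), 0.04 (-0.49 to 0.42) and -0.22 (-0.50 to 0.45) in the same order of species. The natural comparison is the 3368 genes that were below 0.5 in size in these species whatever they did in F. sonorensis, whose medians were -0.16, 0.04 and -0.06.

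A small mean change is not the same as a shown absence of change. The 95% interval of the change (limma) lay within 1 and -1 for 24 of 28 rising members in F. robusta, 25 in F. ramosissima and 24 in F. trinervia. For the 110 falling members these numbers were 96, 100 and 70, so F. trinervia had the most falling members whose interval reached a size of 1. In F. robusta no rising member was called changed and 4 falling members were called lower (limma, adjusted p below 0.05), beside 49.8% of all genes tested there in either direction. At an unadjusted p below 0.05, 4 rising members were higher in F. robusta and none lower, and 5 falling members were higher and 8 lower, beside 10.5% of all genes higher and 46.6% lower at that threshold. No member was called in F. ramosissima, where 0.289% of all genes were, or in F. trinervia, where 1.59% were, and in both the count at an unadjusted p below 0.05 was 0 as well, beside 9.68% of all genes in F. ramosissima and 17.1% in F. trinervia. By its construction, the limit of 0.5 keeps such counts of members low.

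In F. sonorensis itself limma called all 28 rising members higher (4.54% of all genes tested) and 95 of the 110 falling members lower (15.4%). Nothing is read from these counts, since the members were chosen by this contrast. Without low CO2 replicate 1 of F. sonorensis they were 16 and 60. The same holds for the difference between the change in F. sonorensis and that in another species. By the choice, every rising member had a higher change and every falling member a lower change in F. sonorensis than in each other species. Limma called the change of rising members higher than in F. robusta for 19 (13% of all 8863 genes), than in F. ramosissima for 7 (0.417%) and than in F. trinervia for 19 (2.38%). It called the change of falling members lower than in F. robusta for 68 (6.95%), than in F. ramosissima for 31 (1.64%) and than in F. trinervia for 53 (3.42%). All 3 differences were called for 6 rising members (0.181% of all genes) and 26 falling members (0.609%).

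These last counts depended strongly on single libraries. The 6 rising members were 10 without control replicate 1 of F. sonorensis, 3 without its low CO2 replicate 1 or 2, and 2 without its control replicate 2. They were 2 without low CO2 replicate 3 or control replicate 1 of F. ramosissima, and 3 without control replicate 2 of that species. The 26 falling members were 8 without low CO2 replicate 1 of F. sonorensis and 13 without its control replicate 2. They were 15 without low CO2 replicate 2 or control replicate 2 of F. ramosissima, 14 without its low CO2 replicate 3 and 16 without control replicate 3 of F. trinervia. Most members did not have all 3 differences called at this number of libraries, which does not show that their changes were alike.

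Within the allowed band, the directions of the members can be set beside those of the 3368 genes with small changes. Among rising members, 11 of 28 had a change above 0 in F. robusta (39.3%, beside 31.7% of those genes), 21 in F. ramosissima (75%, beside 58.2%) and 16 in F. trinervia (57.1%, beside 40.6%). Among falling members, 45 of 110 had a change above 0 in F. robusta (40.9%), 60 in F. ramosissima (54.5%) and 32 in F. trinervia (29.1%), beside the same shares. A change in the direction of F. sonorensis in all 3 others was seen for 3 of 28 rising members (10.7%, beside 8.40% of the 3368 genes above 0 in all 3) and 21 of 110 falling members (19.1%, beside 17.6% below 0 in all 3). One rising member (3.57%) and 6 falling members (5.45%) went the other way in all 3. No test was made of these shares.

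The mean change in F. robusta hid an unequal behaviour of its libraries. Set against the mean of the F. robusta controls, the median over rising members was 0.40 in low CO2 replicate 1, -0.32 in replicate 2 and -0.17 in replicate 3. For the falling members the medians were -0.35, 0.15 and 0.01. The 3368 genes with small changes had medians of -0.15, -0.19 and -0.13 in these libraries. On TPM as deposited, the members in replicate 1 thus lay in the direction of F. sonorensis, and in replicate 2 in the opposite one. The same was seen beside the 3368 genes: rising members lay above and falling members below them in replicate 1, and the reverse in replicate 2. The median of all 8863 genes in these libraries was -0.39, -0.44 and -0.37. Set against it, the rising members lay at 0.79, 0.12 and 0.21 in replicates 1, 2 and 3, and the falling members at 0.03, 0.59 and 0.38. On that scale both kinds of members were above the median gene in all 3 libraries. The choice favoured this, since it kept members near 0 in F. robusta while the median of all genes was below 0. Replicate 1 still had the highest value for rising and the lowest for falling members.

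Counted by gene, 21 of 28 rising members were above all 3 controls of F. robusta in low CO2 replicate 1, against 5 in replicate 2 and 5 in replicate 3. Of the 3368 genes, 19.5, 17.2 and 18.2% were. Of the falling members, 67 of 110 were below all 3 controls in replicate 1, 21 in replicate 2 and 31 in replicate 3, beside 47.4, 50.7 and 44.6% of the 3368 genes. The median SD within the groups of F. robusta was 0.309 for both rising and falling members, beside 0.175 for the 3368 genes and 0.199 for all genes. In F. ramosissima it was 0.237 for rising and 0.280 for falling members, beside 0.224 for the 3368 genes and 0.267 for all genes. In F. trinervia it was 0.277 and 0.320, beside 0.220 and 0.278, so the members varied more than the 3368 genes in all 3 species. What set replicate 1 of F. robusta apart was not tested. When the rule was applied without it, 29 rising and 104 falling genes were chosen, and 24 and 93 of these were among the members.

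**Figure D3:**
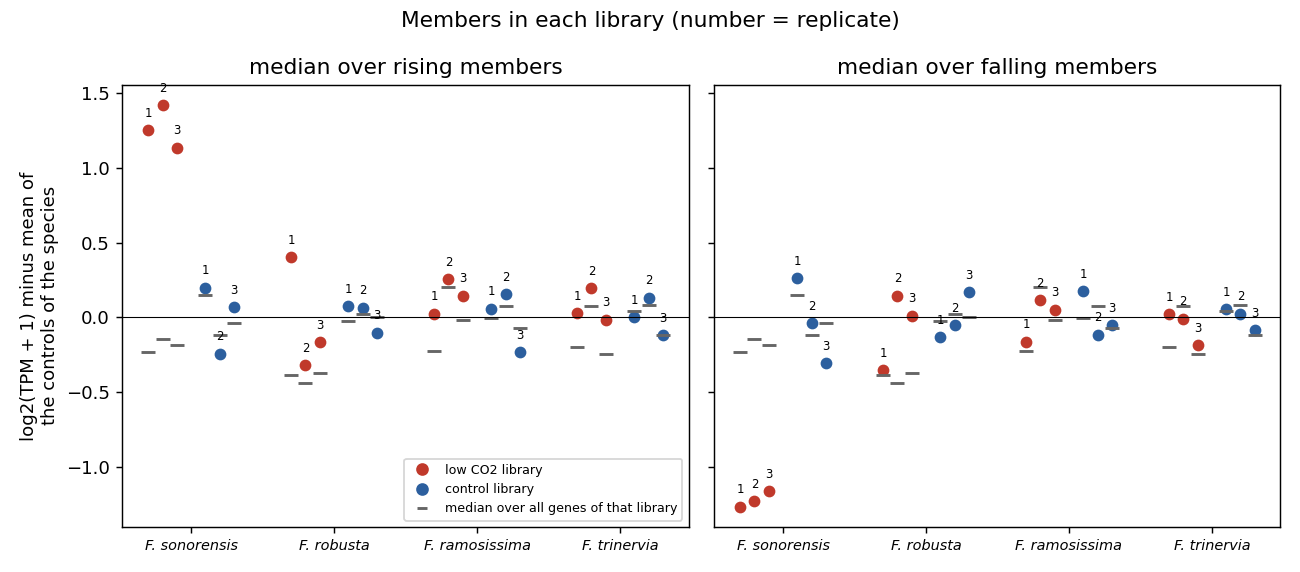
Median over rising (left) and falling (right) members of log2(TPM + 1) in each library minus the mean of the controls of its species, with the replicate number at each point and a bar at the median of all 8863 genes in that library. In F. robusta, low CO2 replicate 1 lies at 0.40 for rising and -0.35 for falling members, away from replicates 2 and 3.

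The 3 low CO2 libraries of F. sonorensis were alike by the same measure, with medians of 1.25, 1.42 and 1.13 over rising members and -1.27, -1.23 and -1.16 over falling members. By these medians, the libraries of F. ramosissima and F. trinervia showed no contrast between rising and falling members as large as that in replicate 1 of F. robusta. At low CO2 the medians of rising members were 0.02, 0.25 and 0.14 in F. ramosissima and 0.03, 0.20 and -0.02 in F. trinervia. Those of falling members were -0.16, 0.12 and 0.05 in F. ramosissima and 0.02, -0.01 and -0.19 in F. trinervia. These medians hide single members. In some falling members, picked after their values were seen, low CO2 replicate 3 of F. trinervia was far below its other libraries. One had 203.45, 204.03 and 68.81 TPM at low CO2, against 190.96, 192.72 and 191.07 TPM in control air. In replicate 3, 57 falling members were below all 3 controls and 30 above. The 57 were 51.8%, beside 46.8% of the genes with small changes. Such members were not counted, and the cause was not tested.

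The level of the members in F. sonorensis was then placed among the levels of the 3 other species, each averaged over its 6 libraries. At low CO2, 16 of the 28 rising members were above all 3 others, 10 between them and 2 below all 3, against 5, 11 and 12 in control air. Of the 110 falling members, 19 were above, 48 between and 43 below at low CO2, against 59, 45 and 6 in control air. Over all 8863 genes, F. sonorensis was above all 3 others for 49.5% at low CO2 and 58.9% in control air, and below all 3 for 9.83% and 6.09%. The falling members in control air (53.6% above) were therefore placed much like other genes, whereas the rising members in control air (17.9% above and 42.9% below) were placed lower than other genes. Since the change between the settings was fixed by the choice, these placings are not independent of each other and no test was made. The placings, and the differences from the median of the 3 other species given next, were made on TPM as deposited and were not repeated under another scaling.

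Measured against the median of the 3 other species, the rising members had a median difference of 0.80 at low CO2 and -0.50 in control air, and the falling members -0.41 and 0.96, beside 0.59 and 0.81 for all genes. F. sonorensis was closer to the median species at low CO2 than in control air for 12 of the 28 rising members (42.9%) and 69 of the 110 falling members (62.7%), beside 60.4% of all genes. In control air 7 falling members (6.36%), Gene31917 among them, were 2 or more log2 units above the highest other species, beside 1.95% of all genes. At the other end was a rising member chosen for mention after its values were seen. It had 34.2, 33.17 and 32.28 TPM at low CO2 and 22.63, 5.6 and 9.99 TPM in control air in F. sonorensis, but 1110 to 1668 TPM in F. robusta, 2673 to 4037 TPM in F. ramosissima and 2286 to 3327 TPM in F. trinervia. Such a row is changed within F. sonorensis at a level far below the other species in both settings, and whether the row stands for the same gene copy in each species was not tested.

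**Figure D4:**
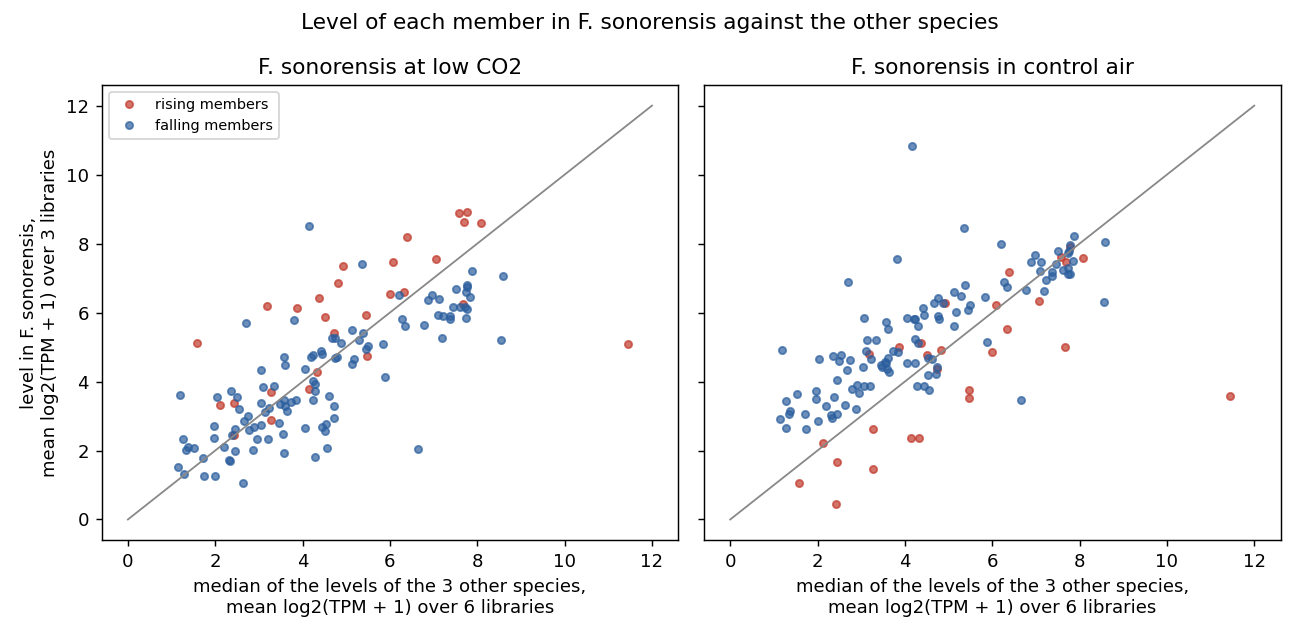
Level of each member in F. sonorensis (mean log2(TPM + 1) of 3 libraries) at low CO2 on the left and in control air on the right, against the median of the levels of the 3 other species, with a line of equal level. F. sonorensis is above all 3 other species for 16 rising and 19 falling members at low CO2 and for 5 rising and 59 falling members in control air.

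The levels of the members in the 3 other species played no part in the choice beyond the minimum TPM, so they could be tested. The test was limma on all 24 libraries, with the level averaged over both CO2 settings. In F. trinervia minus F. robusta, the C4 against the C3 species, 55 of the 110 falling members were called higher (50%, beside 39.3% of all genes) and 22 lower (20%, beside 27.9%). Of the 28 rising members 12 were called higher (42.9%) and 4 lower (14.3%). The median level difference was 0.47 over falling and 0.24 over rising members, beside 0.14 over all genes, and 70 of 110 falling and 16 of 28 rising members lay above that all-gene median.

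In F. ramosissima minus F. robusta, 34 falling members were called higher (30.9%, beside 22.6% of all genes) and 43 lower (39.1%, beside 54.4%), and 6 rising members were called higher and 14 lower. The median was -0.08 over falling and -0.34 over rising members, beside -0.48 over all genes. In F. trinervia minus F. ramosissima, 58 falling members were called higher (52.7%, beside 59.5% of all genes) and 22 lower (20%, beside 18.8%), and 15 rising members were called higher and 4 lower. Here the medians were 0.61 over falling and 0.62 over rising members, beside 0.62 over all genes, so the members were offset between these species much as all genes were.

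The level comparisons with F. ramosissima turned round under one of the 2 other scalings, for all genes as well as for the members. After median-of-ratios scaling, F. ramosissima minus F. robusta had 58 falling members called higher (52.7%) and 26 lower (23.6%). It had 15 rising members higher and 7 lower, beside 40.9 and 35.5% of all genes. The share of falling members called higher was thus above that of all genes, as it was with TPM as deposited. F. trinervia minus F. ramosissima then had 30 falling members higher (27.3%) and 46 lower (41.8%), and 6 rising members higher and 10 lower, beside 36.3 and 38.1% of all genes. F. trinervia minus F. robusta kept its direction, with 53 falling members higher (48.2%) and 26 lower (23.6%) and 12 rising members higher and 5 lower, beside 37.1 and 33.0% of all genes. After quantile normalization, F. ramosissima minus F. robusta stayed at 29 falling members higher (26.4%) and 51 lower (46.4%). It had 6 rising members higher and 15 lower, beside 22 and 57.7% of all genes. F. trinervia minus F. ramosissima then had 60 falling members higher (54.5%) and 19 lower (17.3%). It had 17 rising members higher and 4 lower, beside 59.8 and 20.3% of all genes. F. trinervia minus F. robusta had 48 falling members higher (43.6%) and 24 lower (21.8%). It had 10 rising members higher and 7 lower, beside 37.4 and 32.8% of all genes.

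Which genes count as changed in F. sonorensis only also depended on the scaling. With TPM as deposited, 20.3% of the 138 members were rising and 79.7% falling. After median-of-ratios scaling over all 24 libraries, the rule chose 41 rising and 51 falling genes (44.6% rising), of which 14 and 26 were among the members. After quantile normalization it chose 49 and 75 (39.5% rising), of which 15 and 31 were among the members.

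All 138 members kept their direction in F. sonorensis under both scalings, and all 28 rising members stayed at a change of 1 or more. Of the falling members, 42 stayed at -1 or less under median-of-ratios scaling and 57 under quantile normalization. In F. robusta 91 and 90 of the 138 were still below 0.5 in size, in F. ramosissima 135 under both and in F. trinervia 129 and 121. Under median-of-ratios scaling the median change in F. robusta was 0.33 over falling and 0.32 over rising members, with a median of 0.02 over all genes, and the median change in F. sonorensis was 1.46 over rising and -0.92 over falling members, with 0.04 over all genes. Under all 3 scalings 34 genes were chosen. They were 13 rising members with changes of 1.01 to 4.06 in F. sonorensis, Gene07946 and Gene31727 among them, and 21 falling members with changes of -2.31 to -1.26, Gene31917 among them. Of these, 3 rising and 8 falling members had all 3 differences from the other species called, beside 0.181 and 0.609% of all genes on TPM as deposited. The 34 genes were chosen by these same contrasts, so nothing is read from the counts.

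**Figure D5:**
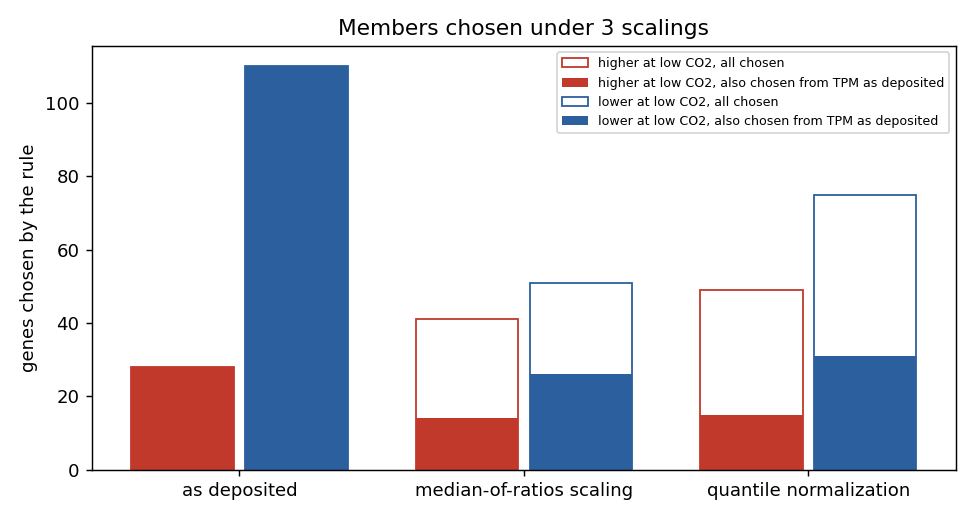
Number of genes chosen by the same rule from TPM as deposited, after median-of-ratios scaling and after quantile normalization, for genes higher (red) and lower (blue) at low CO2 in F. sonorensis, with the filled part showing those also chosen from TPM as deposited. The filled parts are 14 and 26 genes under median-of-ratios scaling and 15 and 31 under quantile normalization.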

How the data were processed

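Leaf RNA of 4 Flaveria species was sequenced in 24 libraries as paired reads of 150 bp. The authors deposited TPM (length-corrected abundance relative to the library) in a single table. The submitters' processing notes name RSEM and edgeR. The sources used here do not give the aligner, the reference sequences or the way the 4 species share gene rows. TPM is relative, so a rise of abundant transcripts lowers all other values, and it keeps no depth. Columns were assigned to libraries by the sample descriptions, and 0 columns were left unmapped.

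The values were taken as log2(TPM + 1), which understates the change of low genes. Calls are Benjamini-Hochberg adjusted p below 0.05 from limma 3.58.1 in R 4.3.3 with a trended prior spread. F. sonorensis and each other species alone were fitted on 6 libraries with a mean TPM of at least 1. Levels and differences between species in response were fitted as 8 group means on all 24 libraries, for 8863 genes, and adjusted over all of them. The rule for printed identifiers took, in each direction, the member with the largest change and the most abundant one. Members, lists and tests were chosen with earlier results of these data known. Scripts were tested on simulated data. Alternatives were a pseudocount of 0.1, no minimum TPM or one of 5, quantile normalization, median-of-ratios scaling, a limit of 0.3 for the other species, other priors, a replicate block, other sets of fitted libraries, and leaving out each library. Libraries of a group had identical values for at most 0.182% of the genes at 10 TPM or more in both libraries. Their Spearman correlations were up to 0.988, and no library was a copy of another. Figures were made in Python 3.11.15 with matplotlib 3.10.9.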

Additional observations from a re-analysis of the deposited data

Results flagged for a closer look

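The change at low CO2 in F. sonorensis differed from that in each of the 3 other species for 6 of the 28 rising members and 26 of the 110 falling members (limma, adjusted p below 0.05 in all 3 differences). A test of the difference between species drew attention to them. The members were chosen by these same contrasts, so the counts are a description and no support for the choice.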

How the results depend on the processing

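Of 550 counts computed under alternatives, 511 were within 1.5 times the reported count, and the 60 changes of the 4 printed genes kept their sign. The rule chose 44 rising genes with no minimum TPM (then limited to 200 genes in all), 49 after quantile normalization and 13 with a limit of 0.3, and it chose 31 falling genes with that limit, 68 with a mean TPM of at least 5 and 51 after median-of-ratios scaling. A mean TPM of at least 5 also gave 3 rising and 13 falling members called in all 3 response differences, which were 16 rising after quantile normalization and 15 falling after median-of-ratios scaling. For levels, that minimum gave 36 falling members higher and 9 lower in F. trinervia minus F. robusta, 29 higher and 14 lower in F. trinervia minus F. ramosissima, and 21 lower in F. ramosissima minus F. robusta. Fewer members are tested with that minimum, and the shares over all genes were not computed for it. Median-of-ratios scaling gave 58 falling members higher and 26 lower and 15 rising members higher and 7 lower in F. ramosissima minus F. robusta, and 30 and 46 falling and 6 and 10 rising in F. trinervia minus F. ramosissima. In both comparisons the shares over all genes moved the same way. Quantile normalization gave 7 rising members lower in F. trinervia minus F. robusta. Why the counts moved with the scaling was not tested.

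Leaving out each library in turn gave 21 to 39 rising and 83 to 149 falling genes by the rule, and 2 to 10 rising and 8 to 36 falling members called in all 3 response differences. Leaving out each F. sonorensis library in turn gave 16 to 27 rising and 60 to 105 falling members called in F. sonorensis. Same-numbered libraries were compared by the correlation of their deviations from their group means. No species had all 3 pairs above the limit of 0.1, so the main fits were unpaired. F. ramosissima came close, with correlations of 0.342, 0.470 and 0.0958. Whether the numbers mark a real pairing is not stated. With the replicate number as a block, 25 rising and 106 falling members were called in F. sonorensis, and 8 and 25 in all 3 response differences. The libraries of F. ramosissima were the only ones that each correlated best with their own number, which is a hint from the data. The depth of the libraries is unknown, so precision is limited by 3 libraries a group and counting error could not be given.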
